A study of Mus musculus with 2 samples.

Results

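The tissue inhibitors of metalloproteases (TIMPs) were followed in single hepatocytes grown in 3D culture. The members were the 4 genes whose symbols in the deposited gene lists are Timp1, Timp2, Timp3 and Timp4, out of 28692 genes listed. All 4 were found. The family was chosen by the UMI counts of these same libraries in induction against expansion medium, so the differences between the media below are descriptions.

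TIMPs are small secreted proteins that block the active site of matrix metalloproteases (MMPs), the enzymes that cut collagen, laminin and other matrix proteins. They also act on some of the related ADAM and ADAMTS proteases, and TIMP3, which binds to the matrix, is the member known for inhibiting the TNF-releasing protease ADAM17. In the liver, TIMP1 and TIMP2 are best known as products of activated stellate cells and as brakes on matrix breakdown in fibrosis, and TIMP1 is also made by hepatocytes in inflammation. TIMP4 is the member with the most restricted expression and is usually linked to heart and fat tissue.

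Transcripts were counted in 2 droplet libraries (10x Genomics Chromium) of primary hepatocytes from C57BL/6 mouse liver, embedded in growth-factor reduced Matrigel. Expansion medium held the GSK3 inhibitor CHIR99021 at 3 uM and the cytokine TNFa at 100 ng/mL. Induction medium lacked both and held dexamethasone, a synthetic glucocorticoid, at 3 uM. The growth factors EGF (25 ng/mL) and HGF (50 ng/mL) were in both media, as were the ROCK inhibitor Y27632 (10 uM), the TGF-beta receptor inhibitor A83-01 (1 uM), N-acetylcysteine (1.25 mM), nicotinamide (100 mM) and the supplements N2 and B27 in William E medium. The labels do not give age, sex, number of animals or time in culture. With 1 library per medium there is no replicate and no test, and the 3 factors that differ between the media, and the libraries themselves, cannot be told apart.

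After filtering, 1191 expansion cells with 29390000 UMIs (counted transcript molecules) and 1245 induction cells with 9201887 UMIs remained, and the median cell held 23184 and 6765 UMIs. Levels are UMIs per 1000000 UMIs of the library (CPM), and intervals are 95% intervals for counting error only. The libraries had 4 barcode sequences in common. Both held cells with Xist, the RNA of the inactive X chromosome, and cells with transcripts of Y-linked genes: 309 and 680 in expansion medium and 389 and 515 in induction medium. For the members, Adamts9, Lrp1, Cd44, Plg and Vtn, values in these 2 classes of cells are given beside the pooled ones. The summed level of 10 hepatocyte markers was 36149 CPM in expansion and 61526 CPM in induction medium. The 10 markers of stellate cells and fibroblasts summed to 29.6 and 13.5 CPM, nearly all of it from Reln (29.4 and 13.1 CPM), and the collagen genes Col1a1, Col1a2 and Col3a1 had 0 UMIs in both libraries. The macrophage list summed to 1.77 and 0.869 CPM and the endothelial list to 39.6 and 34.2 CPM, of which Egfl7 gave 38.8 and 33.6 CPM.

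The 4 genes lie on different chromosomes of GRCm38. Timp1 (ENSMUSG00000001131) is on the X chromosome from 20870166 to 20874735, Timp2 (ENSMUSG00000017466) on chromosome 11 from 118301069 to 118355740, Timp3 (ENSMUSG00000020044) on chromosome 10 from 86300372 to 86349506, and Timp4 (ENSMUSG00000030317) on chromosome 6 from 115241892 to 115252205. Timp1, Timp3 and Timp4 each lie inside the span of a synapsin gene on the opposite strand (Syn1, Syn3 and Syn2), which codes for a protein of synaptic vesicles. The sources used here do not state whether strand was used in counting, and the synapsin counts are therefore given beside the members. Timp2 overlaps Cep295nl and Timp4 also overlaps the gene model Gm17482, and both of these had 0 UMIs in both libraries.

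The sequences upstream of the 3 members that reached 10 CPM are shown because these members took different courses between the media. They are the 250 bases before the RefSeq start, on the gene's strand, from RefSeq on GRCm38.p6 (the starts of Timp2 and Timp3 there lie inside the GENCODE spans given above), with matches to a GC box (GGGCGG on either strand) in capitals: chr6:115252206-115252455 (minus strand) for Timp4, chrX:20869916-20870165 (plus strand) for Timp1 and chr10:86300162-86300411 (plus strand) for Timp3.
Timp4: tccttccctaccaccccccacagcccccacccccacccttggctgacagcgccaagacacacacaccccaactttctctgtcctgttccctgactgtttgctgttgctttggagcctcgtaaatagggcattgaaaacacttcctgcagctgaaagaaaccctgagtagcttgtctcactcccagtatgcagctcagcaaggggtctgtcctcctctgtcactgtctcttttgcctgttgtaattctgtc
Timp1: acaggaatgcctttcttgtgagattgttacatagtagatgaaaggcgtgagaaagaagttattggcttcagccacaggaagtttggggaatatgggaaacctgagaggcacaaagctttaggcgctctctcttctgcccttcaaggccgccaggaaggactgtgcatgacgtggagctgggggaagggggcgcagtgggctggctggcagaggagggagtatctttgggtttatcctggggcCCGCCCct
Timp3: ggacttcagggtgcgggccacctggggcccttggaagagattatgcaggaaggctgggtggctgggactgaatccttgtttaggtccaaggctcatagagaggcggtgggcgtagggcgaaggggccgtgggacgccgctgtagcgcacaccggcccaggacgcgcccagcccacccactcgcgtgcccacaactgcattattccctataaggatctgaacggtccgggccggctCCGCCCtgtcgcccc

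Windows of 300 bases, from 250 before to 50 after the start, were searched on both strands. Sites outside these windows were not searched, and a link between these sequences and the media was not tested. The Timp4 window held 2 CpG dinucleotides, against 8 for Timp1, 25 for Timp2 and 24 for Timp3 and a median of 7 over 32851 mouse promoters, of which 14.1% held fewer than Timp4. Its GC content was 53.3%, against 55.0%, 68.7% and 67.0% for the others. A GC box was found in the windows of Timp1, Timp2 and Timp3, not in that of Timp4, and in 35.7% of all promoters. No member's window matched the palindromic glucocorticoid response element (in 0.475% of promoters), the AP-1 site TGANTCA (7.81%), the TCF/LEF site CTTTGAT (3.73%), the NF-kB consensus (8.46%) or TATAAA (13.6%). The AP-1 variant TGAGTAA, in 2.68% of promoters, occurred in the Timp1 window alone among the 4, starting at base 27 of the transcript. It shares its opening letters with the AP-1 site but overlapped no other match.

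Between the media, the family's make-up differed more than its total. The 4 genes together stood at 378 CPM in expansion and 490 CPM in induction medium. Of the 11118 TIMP UMIs in expansion medium, 75.5% were Timp3, 24.2% Timp1, 0.234% Timp2 and 0.117% Timp4. Of the 4510 in induction medium, 53.8% were Timp3, 36.2% Timp4, 9.78% Timp1 and 0.222% Timp2. UMIs count molecules and are not scaled to transcript length. Timp3 thus held the largest share in both media, and Timp4 took the place of Timp1 as the next.

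**Figure D1:**
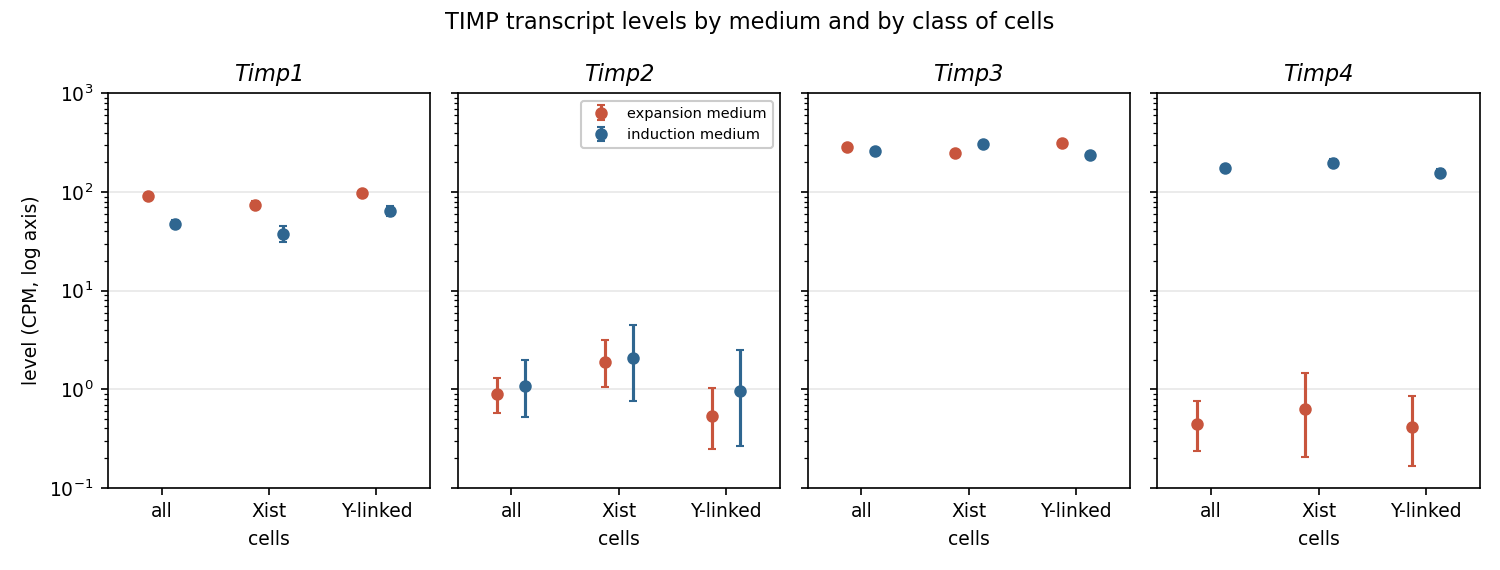
Level of each TIMP gene in CPM (log axis) in expansion and induction medium, over all cells and over cells with Xist or with Y-linked transcripts; points are library values and bars 95% Poisson intervals. Timp4 lies under 1 CPM in expansion and above 150 CPM in induction medium in each class, Timp1 is lower in induction medium in each class, and Timp3 changes order between the classes.

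Timp4 had 13 UMIs in the expansion library (0.442 CPM, 0.236 to 0.756) and 1633 in the induction library (177 CPM, 169 to 186). Its log2 ratio of induction over expansion was 8.65 (7.87 to 9.56), a 401-fold higher level with a counting interval from 234 to 755. By the size rule used here, a ratio of at least 2 at 10 CPM or more with an interval that leaves out a ratio of 1, Timp4 was the member called higher. Over all 7220 genes of that level 12.3% were called, 9.17% higher and 3.17% lower, and Timp4 ranked 16th from the highest ratio. Both classes of cells showed it: 5 UMIs (0.632 CPM) against 578 (199 CPM) in cells with Xist, and 7 UMIs (0.419 CPM) against 649 (157 CPM) in cells with Y-linked transcripts. The 13 UMIs of the expansion library lay in 13 different cells. Syn2, on the other strand around Timp4, stood at 7.62 CPM (224 UMIs) and 32.9 CPM (303 UMIs), a log2 ratio of 2.11 (1.86 to 2.37). Its part in the Timp4 count was not tested; in induction medium the Timp4 count was larger than that of Syn2.

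Timp1 stood at 91.4 CPM in expansion medium (2686 UMIs, 88.0 to 94.9) and 47.9 CPM in induction medium (441 UMIs, 43.6 to 52.6). That is 1.91-fold lower (1.72 to 2.11), a log2 ratio of -0.93, just inside the 2-fold limit, so Timp1 was not called. Among genes that reached 50 UMIs in each library the median log2 ratio was 0.22, and relative to it Timp1 lay at -1.15, past the limit. In cells with Xist the levels were 74.6 and 37.6 CPM (1.98-fold lower), and in cells with Y-linked transcripts 97.7 and 64.6 CPM (1.51-fold lower). Without the cluster of cells led by S100a6, described below, the levels were 84.2 and 23.8 CPM, a log2 ratio of -1.82 (-2.04 to -1.62), which passed the limit. Syn1 had 2 UMIs in each library.

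Timp3 kept nearly the same level, 286 CPM in expansion medium (8393 UMIs, 279 to 292) and 264 CPM in induction medium (2426 UMIs, 253 to 274). The log2 ratio was -0.12 (-0.18 to -0.05), and -0.33 relative to the median gene. Its direction was not shared by the 2 classes of cells. In cells with Xist it stood at 252 and 306 CPM (log2 ratio 0.28, 0.16 to 0.40), higher in induction medium, and in cells with Y-linked transcripts at 315 and 239 CPM (-0.40, -0.50 to -0.30), lower in induction medium. Syn3 had 21 and 6 UMIs.

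Timp2 was close to absent, with 26 UMIs in expansion medium (0.885 CPM, 0.578 to 1.30) and 10 in induction medium (1.09 CPM, 0.521 to 2.00). Its interval ran from a log2 ratio of -0.92 to 1.40, so no difference was detectable at this depth. It stood at 1.90 and 2.07 CPM in cells with Xist and at 0.538 and 0.967 CPM in cells with Y-linked transcripts. A floor of 3 UMIs corresponds to 0.102 CPM in expansion and 0.326 CPM in induction medium, and most Timp2 UMIs lay in 1 cluster of cells, described below.

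The share of cells with a transcript was compared after each cell had been thinned to 2000 UMIs, which left out 0 expansion and 14 induction cells. Timp4 was found in 0.0840% of expansion cells (1 of 1191) and 25.0% of induction cells (308 of 1231, 22.6 to 27.5). Timp1 was found in 15.7% (13.7 to 17.9) and 5.69% (4.46 to 7.13), Timp3 in 37.0% (34.3 to 39.8) and 36.6% (33.9 to 39.3), and Timp2 in 0.0840% and 0.162%. With all UMIs of each cell the shares were 1.09% and 45.9% for Timp4, 73.3% and 16.3% for Timp1, 90.1% and 66.8% for Timp3 and 1.18% and 0.723% for Timp2. The gap for Timp3 in unthinned cells thus went with the deeper expansion library. As a gauge of free RNA, an Xist UMI was found in 32.1% of the 599 expansion cells with at least 2 Y-linked UMIs (median 24990 UMIs) and in 2.21% of the 272 such induction cells (median 7900). Xist stood at 1344 and 1953 CPM in cells with Xist, so this gauge holds for Xist and gives no cut-off for genes of other levels. The part of free RNA in the TIMP shares was not tested.

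**Figure D2:**
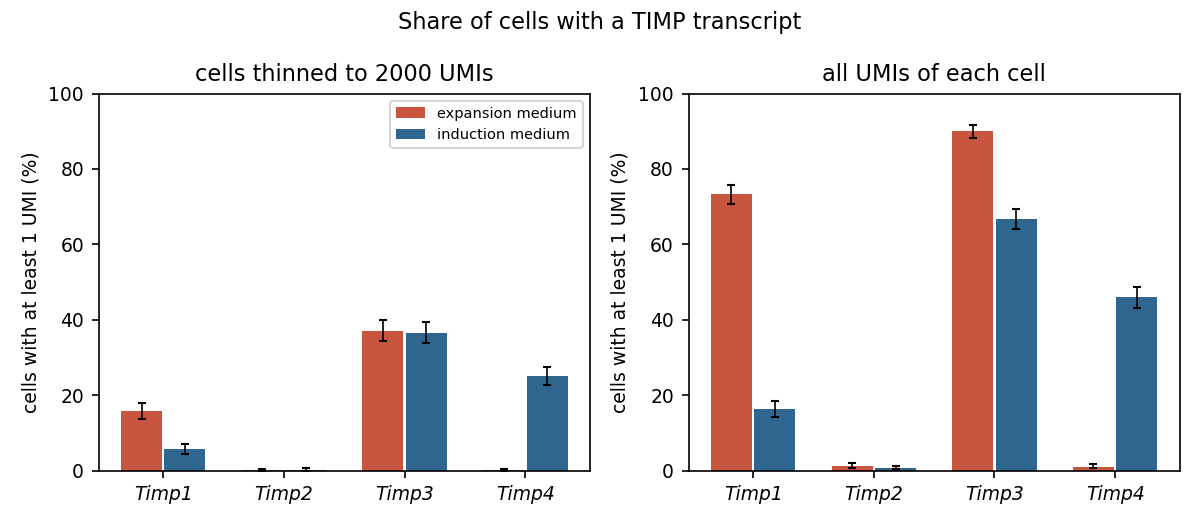
Share of cells with at least 1 UMI of each TIMP gene, in percent, after thinning to 2000 UMIs per cell (left) and without thinning (right), by medium; bars are library shares and black lines exact 95% binomial intervals. After thinning, Timp3 is at 37.0% and 36.6%, Timp1 at 15.7% and 5.69%, and Timp4 at 0.0840% and 25.0%.

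Timp4 was compared between induction cells with and without the other members. In thinned induction cells, Timp4 was found in 27.1% of the 450 cells with Timp3 (23.1 to 31.5) and 23.8% of the 781 cells without it (20.9 to 27.0), and the intervals overlap. In thinned cells outside the S100a6-led cluster these shares were 27.2% of 448 cells (23.2 to 31.6) and 25.6% of 726 (22.5 to 29.0). These intervals overlap as well. With all UMIs of each cell, Timp4 was found in 50.0% of the 832 cells with Timp3 (46.5 to 53.5). Without Timp3 it was found in 37.8% of the 413 cells (33.1 to 42.6), and the unthinned intervals do not overlap. Unthinned cells differ in depth, and a deeper cell is more likely to show both genes. The part of depth in this gap was not tested. In thinned cells, Timp4 was found in 14.3% of the 70 cells with Timp1 (7.07 to 24.7) and 25.7% of the 1161 without it (23.2 to 28.3). Outside the S100a6-led cluster these shares were 22.2% of 45 cells (11.2 to 37.1) and 26.4% of 1129 (23.8 to 29.1). In thinned expansion cells, Timp3 was found in 34.2% of the 187 cells with Timp1 (27.5 to 41.5) and 37.5% of the 1004 without it (34.5 to 40.6).

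Cells of both libraries were clustered together, with the 4 members left out of the genes used. Of the 9 clusters, 4 held no expansion cell, and these took 1118 of the 1245 induction cells. In them Timp4 stood at 204 CPM (194 to 214), Timp1 at 19.2 CPM (16.2 to 22.5), Timp3 at 292 CPM (280 to 304) and Timp2 at 0 UMIs, which allows up to 0.465 CPM. Among these 4, Timp4 ranged from 182 CPM (166 to 199) in cluster 9 to 243 CPM (200 to 293) in cluster 8. Cluster 9 was led by Serpina3k, Serpina3m, Serpinc1, Fbp1 and Sult2a1. Cluster 8 was led by Lockd, Rrm2, Cenpf, Ube2c and Ccnb1, most of them genes of dividing cells. Clusters 6 (led by Ppp1r3b, Thrsp, Slc2a2, Uox and Rgs16) and 7 (Tat, Cps1, Arg1, Spon1 and Bhmt) stood between clusters 9 and 8, at 210 and 215 CPM. The intervals of neighbours in this order overlap, and those of clusters 9 and 8 do not. Timp3 was highest in cluster 7, at 402 CPM (376 to 430), where 84.4% of the cells had Xist, then 316 CPM in cluster 6, 204 CPM in cluster 8 and 193 CPM in cluster 9. The intervals of clusters 8 and 9 overlap, and those of clusters 7, 6 and 8 do not.

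Cluster 5, led by Ccl5, Tuba1a, Tm4sf4, Ly6d and Tinagl1, held 265 expansion and 44 induction cells. Timp1 stood there at 111 CPM (103 to 119) in expansion and 107 CPM (76.8 to 144) in induction medium, and Timp4 at 0.449 CPM (3 UMIs) and 17.8 CPM (7 UMIs, 7.14 to 36.6). Timp3 stood at 362 and 195 CPM. In induction medium, these 44 cells thus lay near the expansion level for Timp1 and above it for Timp4. Their Timp4 UMIs lay in 4 cells. The level stood between the 1.58 CPM of cluster 4 and the 182 to 243 CPM of clusters 6 to 9. Its interval overlaps that of cluster 4 (0.0400 to 8.81), so these 2 were not told apart. In the clusters made up almost wholly of expansion cells, Timp1 ranged from 58.2 CPM in cluster 2 (led by Serpina7, Xist, Adamts9, Slc1a2 and Snhg18) through 70.8 CPM in cluster 3 (Mki67, Ccna2, Ube2c, Top2a and Birc5) to 85.5 CPM in cluster 1 (Orm2, Ang, Saa1, Saa2 and Orm1). Timp3 was at 317, 210 and 293 CPM in the same order.

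**Figure D3:**
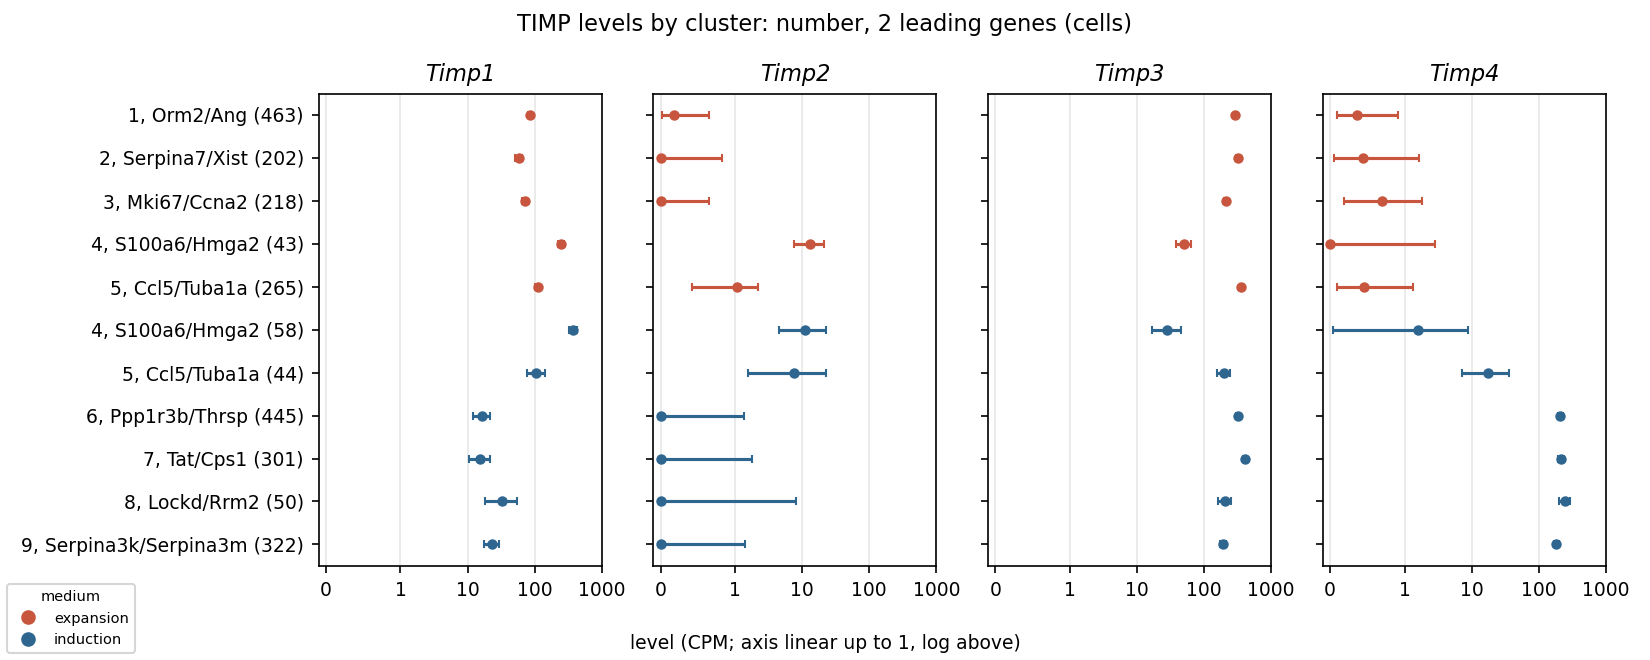
Level of each TIMP gene in CPM (axis linear up to 1, log above) in each cluster with at least 20 cells of a medium, named by number, 2 leading genes and number of cells; points are summed levels and bars 95% Poisson intervals. The S100a6-led cluster has the highest Timp1 and Timp2 and the lowest Timp3 in both media, though its Timp2 interval overlaps that of cluster 5 in induction medium, and Timp4 is high in clusters 6 to 9 of induction medium.

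Cluster 4 was led by S100a6, Hmga2, Axl, Pmm1 and Serpine2. It had high Timp1 and Timp2 and low Timp3 in both media, and little Timp4 in induction medium. It held 43 expansion cells (3.61%) and 58 induction cells (4.66%). Timp1 stood at 247 CPM (221 to 275) in expansion medium, against 84.2 CPM in all other cells, and at 375 CPM (328 to 425) in induction medium, against 23.8 CPM, a 2.93-fold and a 15.7-fold higher level. In induction medium its 58 cells held 237 of the 441 Timp1 UMIs, or 53.7% (49.0 to 58.5). Of all 36 Timp2 UMIs in both libraries, 24 lay in this cluster and 10 in cluster 5. The 24 were 17 UMIs in 6 expansion cells and 7 UMIs in 6 induction cells. In induction medium the Timp2 intervals of the 2 clusters overlap (4.45 to 22.8 CPM and 1.57 to 22.3 CPM). Timp3 stood at 50.0 CPM against 296 CPM in expansion and at 28.5 against 281 CPM in induction medium, 5.93-fold and 9.88-fold lower. Timp4 had 1 UMI there in induction medium, 1.58 CPM (0.0400 to 8.81), against 190 CPM in the other induction cells. It had 0 UMIs there in expansion medium, where no cluster exceeded 0.699 CPM, so this does not set the cluster apart.

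The same cluster held less hepatocyte RNA. The hepatocyte markers summed to 6597 CPM in its expansion cells and 14783 CPM in its induction cells, against 23016 to 49491 and 35874 to 96393 CPM in the other clusters of each medium. The markers of stellate cells and fibroblasts summed to 5.38 and 1.58 CPM, below the level over all cells, and those of bile duct cells to 1924 and 4089 CPM, above the other clusters of each medium except cluster 5 (2282 and 6310 CPM). Over all cells the bile duct list summed to 1497 and 776 CPM, of which Spp1 gave 1307 and 661 CPM, while Krt19 had 6 UMIs and 1 UMI and Krt7 had 0 in both libraries. In cluster 4 the 5 mesothelial markers summed to 8.46 and 12.6 CPM, against 4.05 and 1.41 CPM over all cells. The macrophage list summed there to 8.46 and 1.58 CPM, against 1.77 and 0.869 CPM over all cells. In induction medium 1.58 CPM is the level of 1 UMI in this cluster (0.0400 to 8.81), so it was not told apart from 0.869 CPM. The endothelial list summed there to 33.8 and 25.3 CPM, below its level over all cells. The part of these other transcripts in the TIMP levels was not tested. Cells with Xist made up 41.9% and 36.2% of cluster 4 and cells with Y-linked transcripts 37.2% and 51.7%, so both classes were present. The cluster was cut from the transcripts of these same cells, so its contrast with the rest is a description.

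Across the cells of 1 library, the genes most like a member were sought for Timp1 and Timp3 in expansion medium and Timp3 and Timp4 in induction medium, the members found in at least 20% of cells. The highest r was 0.33. The measure was Pearson's r of log-scaled counts with the effect of each cell's UMI total taken out, over genes with a UMI in at least 20% of cells (6530 genes in 1191 expansion cells and 3260 genes in 1245 induction cells), and it shares library and depth among its points. For Timp4 in induction medium the 5 highest were Ccl9 (r = 0.31), Ttc36 (0.31), Crp (0.31), Apoa2 (0.31) and Cyp3a11 (0.30), and within cells with Xist and with Y-linked transcripts they ranged from 0.21 to 0.45. For Timp1 in expansion medium they were Spp1 (0.30), Capg (0.26), Glrx3 (0.25), Tuba1a (0.24) and Lgals1 (0.23). For Timp3 they were Cd44 (0.33), Serpina1c (0.33), Serpina1a (0.31), Serpina1b (0.31) and Cyp1b1 (0.30) in expansion medium, and Sepp1 (0.28), Igfbp4 (0.28), C3 (0.27), Spon1 (0.26) and Guca2b (0.26) in induction medium. The Serpina1 genes are near-identical copies, so the split of their counts is uncertain. Between members, r was -0.13 for Timp1 with Timp3 in expansion medium and 0.12 for Timp3 with Timp4 in induction medium. Without the S100a6-led cluster these were -0.09 and 0.08. For the named genes r then ranged from 0.17 to 0.29 for Timp1 and 0.23 to 0.33 for Timp3 in expansion medium. In induction medium it then ranged from 0.17 to 0.23 for Timp3 and 0.27 to 0.28 for Timp4. In counts this sparse these are weak values.

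Of the listed MMP, ADAM and ADAMTS genes, 8 reached 10 CPM and 1 of these was called, a share near the 12.3% of all genes. Of 23 MMP genes, 11 had 0 UMIs in both libraries and 2 reached 10 CPM: the membrane-bound Mmp15 (29.0 and 30.2 CPM) and Mmp14 (16.1 and 18.3 CPM), the latter an activator of MMP2. Neither was called. Of 11 ADAM genes, 4 reached that level and none was called: Adam10 (42.0 and 49.3 CPM), a general membrane sheddase, Adam9 (26.0 and 41.9 CPM), Adam17 (20.1 and 16.3 CPM) and Adam15 (13.8 and 11.1 CPM). Of 24 genes of the ADAMTS group, 2 reached it. Adamts9, a secreted protease that cuts proteoglycans, was called lower, at 66.7 CPM (1961 UMIs) and 12.6 CPM (116 UMIs), 5.29-fold, and at 87.2 and 20.3 CPM in cells with Xist and 59.1 and 10.2 CPM in cells with Y-linked transcripts. Adamts7 stood at 25.7 and 14.8 CPM.

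Among 10 proteins that TIMPs bind or act through, 7 reached 10 CPM, 1 was called higher and 1 lower. Over all genes of that level 9.17% were called higher and 3.17% lower. Lrp1, the endocytic receptor that clears TIMPs and their protease complexes from the surface, was 4.03-fold higher in induction medium (7.45 and 30.0 CPM). Cd44, the hyaluronan receptor and a docking site for surface proteases, was 3.21-fold lower (720 and 225 CPM). Both kept their direction in cells with Xist (Lrp1 at 2.65 and 21.7 CPM, Cd44 at 840 and 296 CPM) and in cells with Y-linked transcripts (9.39 and 32.9 CPM, and 693 and 209 CPM). Cd63, the tetraspanin that binds TIMP1 at the cell surface, stood at 241 and 340 CPM, App, the amyloid precursor protein, at 134 and 215 CPM, and the tetraspanin Cd82 at 102 and 77.2 CPM.

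Of 15 other inhibitors and activators, 7 reached 10 CPM, and 4 were called higher and 0 lower, beside 9.17% and 3.17% of all genes. Plg, which codes for plasminogen, the precursor of the matrix-cutting and MMP-activating protease plasmin, was 15.7-fold higher in induction medium (10.4 and 162 CPM). In cells with Xist it was 34.1-fold higher (4.93 and 168 CPM), and in cells with Y-linked transcripts 13.4-fold (10.8 and 144 CPM). The proprotein convertases Pcsk6 (6.06 and 17.7 CPM) and Furin (47.7 and 116 CPM), which activate proteases in the secretory route, were 2.92-fold and 2.43-fold higher. Serpine2, a serine protease inhibitor, was 2.52-fold higher (14.2 and 35.6 CPM), but without the S100a6-led cluster it stood at 4.45 and 5.37 CPM with a log2 ratio of 0.27 (-0.25 to 0.77), and was no longer called. Bsg, an inducer of MMPs and the most abundant gene of this list, stood at 386 and 362 CPM.

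Of 18 proteins that these proteases shed or cleave, 11 reached 10 CPM and, beside 12.3% of all genes, none was called. Among them Tnf stood at 21.6 and 12.4 CPM, Cdh1, the adhesion protein E-cadherin, at 58.0 and 44.0 CPM, the HGF receptor Met at 19.0 and 25.5 CPM, the EGF receptor ligand Tgfa at 27.2 and 35.6 CPM, and the syndecans Sdc1 at 89.3 and 113 CPM and Sdc4, the most abundant, at 450 and 372 CPM. Of 23 matrix genes, 10 reached 10 CPM, with 3 called higher and 0 lower, beside 9.17% and 3.17% of all genes. Those called were Vtn, the plasma adhesion protein vitronectin (87.2 and 496 CPM, 5.69-fold), Col18a1, a basement membrane collagen (117 and 265 CPM), and Fn1, fibronectin (302 and 673 CPM). Vtn was 10.2-fold higher in cells with Xist (44.2 and 452 CPM) and 4.58-fold higher in cells with Y-linked transcripts (105 and 480 CPM). Col4a2 (39.2 and 24.8 CPM), Col4a5 (15.3 and 9.78 CPM) and Agrn (119 and 90.7 CPM), also basement membrane genes, were not called.

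Over the 7 lists, 43 of 124 genes reached 10 CPM, 8 (18.6%) were called higher and 2 (4.65%) lower, beside 9.17% and 3.17% of all 7220 genes. Their median log2 ratio was 0.06, beside 0.21 over all those genes. Relative to the median gene the split was 6 higher and 4 lower, since Fn1 and Col18a1 left the first group and Adamts7 and Tnf joined the second. Without the S100a6-led cluster 9 genes were called. The shares of all genes were counted under the main rule alone, so they do not apply to these 2 settings.

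**Figure D4:**
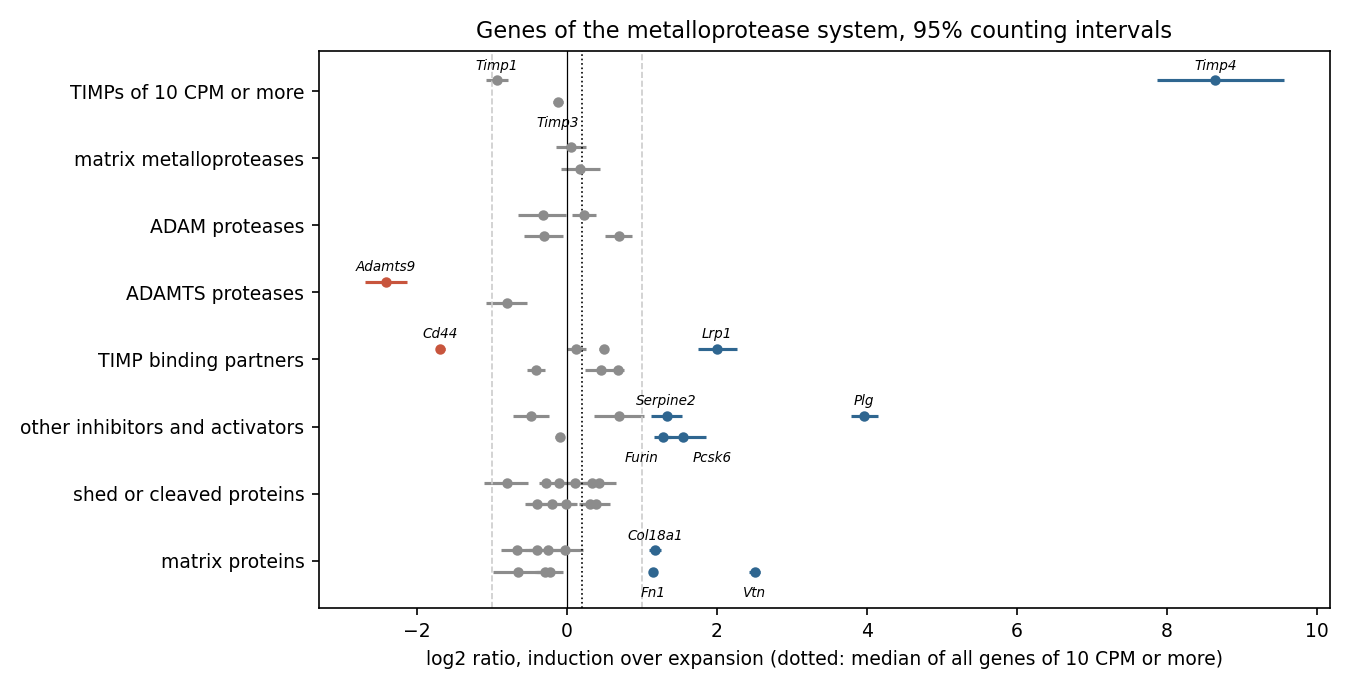
Log2 ratio of induction over expansion for the TIMP genes and the listed genes of the metalloprotease system that reached 10 CPM in either library, with 95% counting intervals; blue and red points were called higher and lower, grey points were not, dashed lines mark a ratio of 2 and the dotted line the median of all such genes. Timp4, at 8.65, lies beyond every listed gene that reached 10 CPM, the nearest being Plg at 3.97.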

How the data were processed

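The deposited files hold raw UMI counts per gene and cell barcode for 1 library per medium. They were made, per the submitters' processing notes, with Cell Ranger 2.1.1 on mm10. The annotation, the cell calling and the use of strand were not given in the sources used here. Members and gene lists were chosen with earlier results of these data known.

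Cells were kept from 500 detected genes upward and up to 25% mitochondrial UMIs, which removed 17 from expansion and 30 from induction medium. Counts were summed per library. Intervals for levels are exact Poisson, for shares exact Clopper-Pearson and for ratios exact conditional binomial, at 95%, and cover counting error only. A gene was called where its higher level reached 10 CPM, with a ratio of at least 2 and an interval without a ratio of 1. Cells with Xist had at least 2 Xist UMIs and none of 4 Y-linked genes (Ddx3y, Eif2s3y, Kdm5d, Uty); cells with Y-linked transcripts had at least 1 of these and at most 1 Xist UMI. Cells were thinned without replacement with a fixed seed.

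Clusters used scanpy 1.11.5 and igraph 0.11.9 (Leiden, resolution 0.6, 20 components of 2000 variable genes, 15 neighbours); leading genes are the highest folds over other cells at 100 CPM or more, without mitochondrial, ribosomal and unnamed models. Clusters are called by number. Doublets were kept; Scrublet marked 4 and 2 cells. Named in each list were the most abundant gene and the 3 largest ratios in each direction; Furin was added after its value was seen, since it was called. A gene that this rule names is not reported here. Positions are from GENCODE M21 on GRCm38, where 28416 of the 28692 gene IDs were found; the 4 promoters matched by symbol. The ratio and thinning code was tested on simulated data. Python 3.11.15, numpy 2.4.6, scipy 1.17.1, pandas 2.3.3 and matplotlib 3.10.9 were used.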

Additional observations from a re-analysis of the deposited data

Results flagged for a closer look

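The Timp3 ratio had opposite directions in the 2 classes of cells: 0.28 on the log2 scale where Xist was found and -0.40 where Y-linked transcripts were, a difference of 0.68. The difference was not tested, since each class holds cells of 1 library per medium. Both intervals left out 0. The ratios of Timp1 (-0.99 and -0.60) and Timp4 (8.30 and 8.55) kept 1 direction in both classes. The thinned share of cells with Timp3 differed by 5.44 percentage points (-2.05 to 12.8) in cells with Xist. In cells with Y-linked transcripts it differed by -4.70 (-10.2 to 0.905). Both of these intervals hold 0, so the shares did not resolve a direction.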

How the results depend on the processing

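No alternative changed the direction of the Timp4 ratio, which ranged from 8.30 to 8.94 on the log2 scale, or its call. The Timp1 ratio of -0.93 was -1.16 without mitochondrial and ribosomal protein genes in the total, -1.15 relative to the median gene, -1.29 after thinning before summing, -1.27 with every cell weighted equally, -0.60 in cells with Y-linked transcripts and -1.82 without the S100a6-led cluster, a setting chosen after seeing the data; the cause was not tested. The Timp3 ratio of -0.12 was -0.34 and -0.33 under the first 2 of these settings, 0.28 in Xist cells and -0.40 in Y-linked cells. The difference in the thinned share of cells, induction minus expansion in percentage points, depended on depth by construction. Without thinning it was -57.0 for Timp1, -0.453 for Timp2, -23.3 for Timp3 and 44.9 for Timp4, where thinning to 2000 UMIs gave 0.0785 for Timp2, -0.472 for Timp3 and 24.9 for Timp4 and, for Timp1, the shares of 15.7% and 5.69%. At 1000 UMIs it was -5.00 for Timp1 and 15.9 for Timp4. In cells with Xist it was -7.30 for Timp1, 5.44 for Timp3 and 30.6 for Timp4, and in cells with Y-linked transcripts -4.70 for Timp3 and 22.4 for Timp4. The count of listed genes called, 10, was 13 at a minimum of 5 CPM, for which the share of all genes is not given here. No paired analysis was possible because each medium has 1 library. Counts of Timp2, and of Timp4 in expansion medium, limit the precision of their ratios.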

Other observations

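Cells that met neither the Xist nor the Y-linked rule numbered 202 in expansion and 341 in induction medium. Timp1 stood in them at 97.1 CPM (462 UMIs) and 30.0 CPM (65 UMIs), Timp3 at 236 and 254 CPM, and Timp4 at 1 and 406 UMIs, the latter 187 CPM. Timp2 had 2 and 0 UMIs.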
